A study of Mus musculus with 9 samples.

Results

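The genes described here encode the proteins of the cytosolic ribosome. They were chosen by symbol: Rpl or Rps followed by a number, plus Rplp0, Rplp1, Rplp2 and Rpsa, without symbols containing -ps and without the S6 kinases, whose symbols start with Rps6k. This gave 82 of the 21872 genes with a named probe, and of several probes for a gene the brightest by its mean over 9 arrays stands for it. Of the 82, 70 are core ribosomal protein genes, 26 of the small subunit and 44 of the large subunit. A further 10 are paralogues or copies of a core gene. The remaining 2, Rps19bp1 and Rps23rg1, carry an Rps symbol but encode no ribosomal protein. Rps27a and Rpl18 were not analysed here.

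A ribosome joins a small subunit, which decodes the messenger RNA, to a large subunit, which links amino acids into a chain. Messages of ribosomal proteins are among the most abundant in dividing cells, and many begin with a run of pyrimidines, the TOP motif, through which mTOR and Larp1 control their translation. In marrow these genes are known from Diamond-Blackfan anaemia, in which a mutation in a ribosomal protein gene impairs the making of red cells.

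Sorted granulocyte-monocyte progenitors (GMPs; gate Lin-cKit+Sca1-CD16/32+CD150-) were profiled from the marrow of secondary C57BL/6 recipients 1 month after a transplant, with 3 arrays per group. LeuA and LeuB recipients had received splenic cells of independent moribund mice that were Tet2-/- with AE, a gene fusion also called AML1-ETO, and WT recipients had received wild-type marrow. Tet2 encodes an enzyme that oxidizes methylated cytosine in DNA. Each leukaemia descends from 1 primary mouse, grafts differed in tissue as well as genotype, and pooling of recipients is not stated. For LeuB arrays the field on transplanted cells names LeuA with AE3, whereas title, source and description give LeuB or AE3, which was followed here. The labels speak of biological triplicates, so p-values speak of the spread between such arrays, not between leukaemias.

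The values are log2 intensities that had been brought to 1 distribution shared by all arrays, so that array medians lay at 7.02 to 7.04 and every array reached 18.24. Slide 1 held all LeuA and WT arrays and LeuB 1, and slide 2 held LeuB 2 and LeuB 3. In a fit with a slide term a LeuB difference therefore rests on LeuB 1 alone. The leukaemic sorts carry the GMP label but were low in the granule genes that mark GMPs. The mean of 7 granule genes of GMPs was 7.92 to 8.00 in LeuA arrays, 7.49 to 8.11 in LeuB arrays and 15.97 to 16.12 in WT arrays, and 7 of 7 fell in both leukaemias. The mean of 8 erythroid genes was 13.74 to 13.98 in LeuA, 13.96 to 14.07 in LeuB and 8.22 to 8.39 in WT, and 8 of 8 rose in both. For 6 mast cell and basophil genes the mean was 12.28 to 12.87 in LeuA, 11.45 to 11.95 in LeuB and 9.53 to 9.81 in WT, and 4 of 6 rose in each leukaemia while 1 fell in LeuA and 2 fell in LeuB. All 5 monocyte genes fell in both, with means of 6.58 to 6.61 in LeuA, 6.61 to 7.16 in LeuB and 12.04 to 12.68 in WT, and 3 of 4 megakaryocyte genes fell in both. Every difference below therefore lies between populations that also differ in these markers, and the part of the markers in the results was not tested.

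Ribosomal protein genes filled the top of the scale. Of the 88 genes with a mean of at least 17, 40 were members, and of the 180 genes with a mean of at least 16, 59 were members. In 17 members at least 1 value lay within 0.5 of the highest value. Rpl41, which encodes a very small protein of the large subunit, held the highest value in LeuA 1. Its values were 18.24, 18.19 and 18.14 in LeuA, 18.14, 18.19 and 18.19 in LeuB, and 18.16, 18.14 and 18.11 in WT, with overlapping groups. Only 3 members, the paralogues Rpl39l, Rpl3l and Rpl10l, had a mean below 7.53, the median of all gene means. Brightness also depends on the probe, so these ranks do not order the genes by transcript number. Values close to the top of a shared distribution have little room to rise, and the part of this in the sizes of change was not tested.

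The level of the set stayed within a narrow band in all arrays. The median over the 82 members was 17.03, 16.99 and 16.99 in LeuA, 16.99, 16.96 and 16.97 in LeuB, and 16.92, 16.91 and 16.92 in WT. These medians of levels were higher in every leukaemic array than in every WT array. Over the 70 core genes alone the groups overlapped, at 17.06 to 17.13 in LeuA, 17.01 to 17.08 in LeuB and 17.04 to 17.09 in WT. In contrast to the medians of levels over all members, the median over members of each gene's own change was slightly negative, at -0.05 in LeuA and -0.06 in LeuB. The same median over all genes was 0.01 in LeuA and -0.01 in LeuB. Changes of single members were small: the median size of a member's change was 0.10 in LeuA and 0.11 in LeuB, against 0.17 and 0.22 over all genes.

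In LeuA, 14 of the 82 members (17.1%) passed an adjusted p under 0.05 in limma, 3 of them higher and 11 lower than WT. Over all genes tested 36.8% passed, 17.9% higher and 18.9% lower. In LeuB, 24 members (29.3%) passed, 8 higher and 16 lower, against 42.3% of all genes, 21.8% higher and 20.4% lower. Both shares of the members lay below those of all genes, and the comparisons share their WT arrays. Leaving out the members with a value within 0.5 of the highest value left 65. Of these, 12 (18.5%) passed in LeuA and 22 (33.8%) in LeuB. Just 1 member, Rps4l, passed with a change of at least 2-fold in each leukaemia, against 13% of all genes in LeuA and 13.8% in LeuB. Without Rps4l the largest change that passed was 1.38-fold in LeuA (Rps21) and 1.51-fold in LeuB (Rps23rg1). In bulk arrays, fewer cells of a type and less RNA per cell cannot be told apart.

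The small size of the changes was shared by other bright genes. Among 121 genes outside the set with a mean of at least 16, 28.1% passed in LeuA and 24.8% in LeuB, and their median size of change was 0.11 and 0.15. Members with a mean of at least 16 passed in 7 of 59 cases (11.9%) in LeuA and in 12 of 59 (20.3%) in LeuB. Of these bright members, 3 were higher and 4 lower in LeuA, and 7 higher and 5 lower in LeuB. Over all 82 members 11 were lower in LeuA and 16 in LeuB, so most of the called falls lay in the dimmer members. Arrays of LeuA did not overlap those of WT in 42 members (51.2%), against 49.5% of all genes, and arrays of LeuB did not overlap those of WT in 44 (53.7%), against 52.4%.

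**Figure D1:**
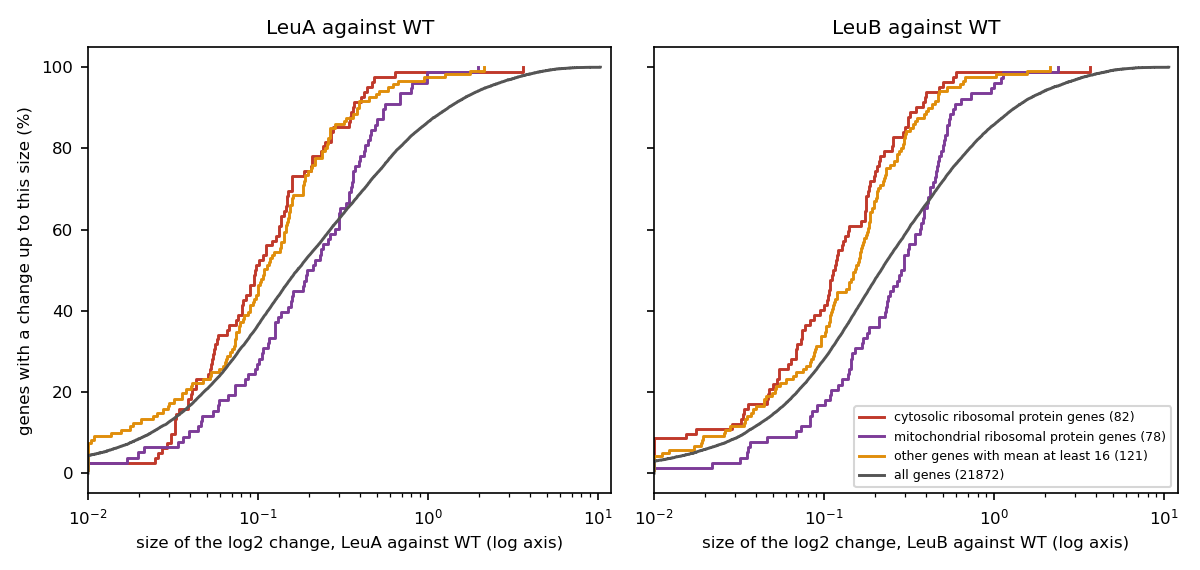
Size of the log2 change against WT (x axis, log scale) and the percentage of genes with a change up to that size (y axis), for LeuA on the left and LeuB on the right. Curves stand for the 82 cytosolic ribosomal protein genes, 78 mitochondrial ribosomal protein genes, 121 other genes with a mean of at least 16, and all 21872 genes; the cytosolic curve runs left of the curve of all genes through most of the range and close to that of the other bright genes.

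How many members count as higher or lower depends on the scaling, because the changes are small. Centring each array on its median over genes gave 10 members higher and 6 lower in LeuA, and 9 higher and 8 lower in LeuB. Centring on 10 reference genes gave 50 higher and 1 lower in LeuA and 38 higher and 3 lower in LeuB. That centring also moved the median of all genes to 0.28 in LeuA and 0.24 in LeuB, and most of that shift came with 1 gene, Gusb, which encodes a lysosomal enzyme and gave -1.67 in each leukaemia. Without Gusb the median of all genes was 0.12 in LeuA and 0.086 in LeuB, and the counts were 14 higher and 3 lower in LeuA and 15 higher and 7 lower in LeuB. Relative to the median of all genes the members' median was -0.06 in LeuA and -0.05 in LeuB under each of these centrings, which move all genes of an array alike. Among members called lower, Rps3, Rps29, Rpl10 and Rpl30 in LeuA and Rpl10, Rpl30, Rpl3, Rpl15 and Rps26 in LeuB turned sign with the reference genes, and stayed below 0 without passing when Gusb was left out of them. No common direction of the set is therefore given.

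**Figure D2:**
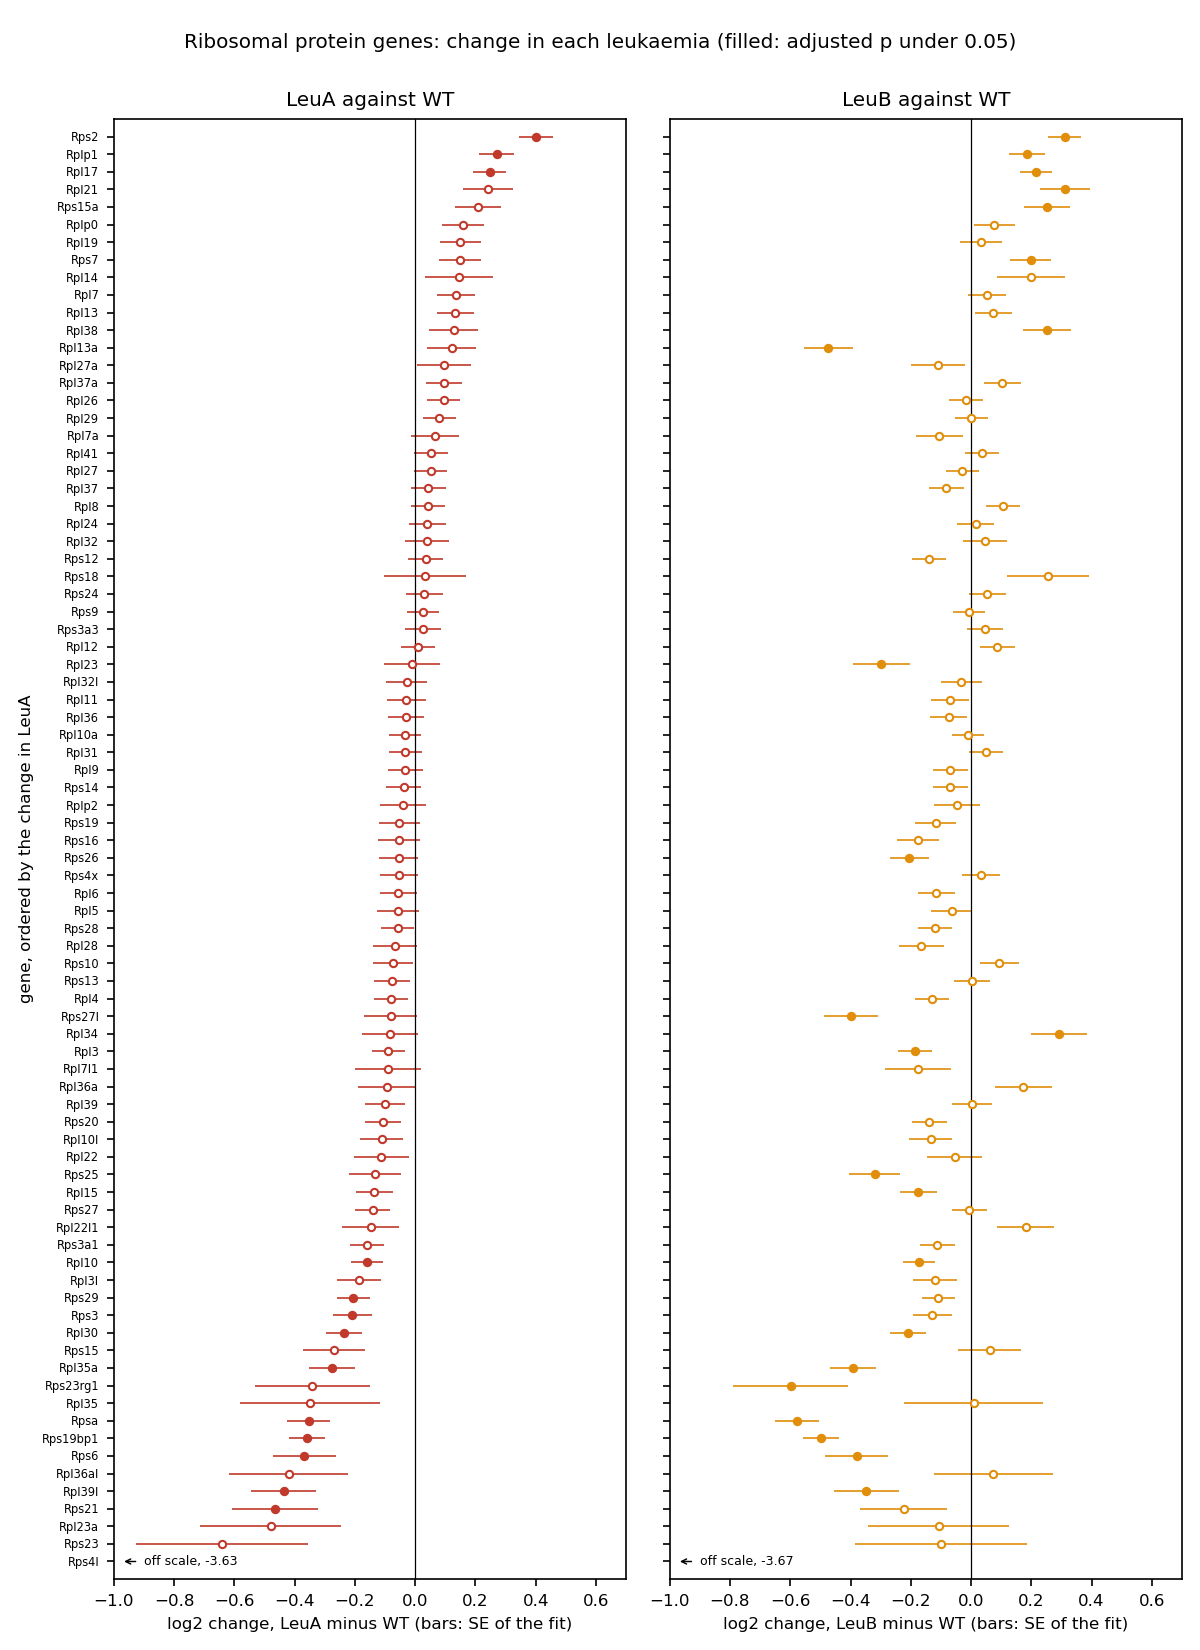
log2 change of each of the 82 genes in LeuA against WT (left) and LeuB against WT (right), with bars of 1 SE of the limma fit and filled points at an adjusted p under 0.05; genes run down the page in the order of their change in LeuA. Nearly all points lie between -0.5 and 0.5, and Rps4l lies off the scale at -3.63 and -3.67.

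The sequences around the start of 7 members are shown because the TOP motif is the feature these genes are known by. They run from 30 bases before to 20 after the annotated start, 5′ to 3′ on the gene's strand, from RefSeq promoters on GRCm38.p6, and capitals mark a run of at least 5 pyrimidines with a C as its first base. The run shown is the first that is met when reading from 10 bases before to 10 bases after the start. It is marked from the first C inside that window, and later runs, as in Rps27 and Rps27l, stay in lower case. Rpl34 and Rps27l have 2 annotated starts each, and a start with such a run was preferred for printing. Rps2 lies at chr17:24720033-24720082 (+), Rpsa at chr9:120127736-120127785 (+), Rps6 at chr4:86857348-86857397 (-), Rpl13a at chr7:45128726-45128775 (-), Rpl34 at chr3:130730379-130730428 (-), Rps27 at chr3:90213629-90213678 (-) and Rps27l at chr9:66946056-66946105 (+).
Rps2: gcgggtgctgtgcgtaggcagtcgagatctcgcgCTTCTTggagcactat
Rpsa: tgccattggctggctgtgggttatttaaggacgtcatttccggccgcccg
Rps6: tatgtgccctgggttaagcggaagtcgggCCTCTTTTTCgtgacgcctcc
Rpl13a: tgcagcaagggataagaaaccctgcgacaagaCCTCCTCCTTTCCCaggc
Rpl34: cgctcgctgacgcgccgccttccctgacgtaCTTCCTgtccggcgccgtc
Rps27: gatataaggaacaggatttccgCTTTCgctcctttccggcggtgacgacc
Rps27l: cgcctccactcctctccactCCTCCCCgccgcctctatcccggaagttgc

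A promoter was found for 66 of the 82 members, 56 of them core genes. A gene with several annotated starts counted as holding a feature if any of its starts held it. A C at the annotated start followed by at least 4 pyrimidines was present in 13 of the 56 core genes (23.2%), against 3.01% of all 27025 genes of the table and 0 of 69 mitochondrial ribosomal protein genes. Within 10 bases of the start such a run was present in 33 of 56 core genes (58.9%), 6 of 8 paralogues and copies (75%) and 31 of 69 mitochondrial ribosomal protein genes (44.9%), against 34.4% of all genes. Rps2 and Rps6, which moved in opposite directions, both held such a run, and Rpsa held none in this window. In the whole stretch from 250 bases before to 50 after the start, GGAAGT on either strand was found in 51.8% of core genes and 26.5% of all genes, TATAAA in 10.7% and 15.7%, and CACGTG in 10.7% and 8.09%. In Rpl34 the pyrimidine run overlaps ACTTCC, which is GGAAGT read on the other strand. Of core genes that passed against WT in either leukaemia, 11 of 16 (68.8%) held the run near the start, beside 22 of 40 (55.0%) of the core genes that did not.

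Small subunit genes moved both ways. Of 26 core genes of this subunit, 6 passed in LeuA, 1 higher and 5 lower, and 7 passed in LeuB, 3 higher and 4 lower. These shares of 23.1% and 26.9% lay below the 36.8% and 42.3% of all genes. The rise was strongest in Rps2, which encodes a protein at the entry of the messenger RNA channel. Rps2 had 17.26, 17.25 and 17.25 in LeuA, 17.16, 17.15 and 17.18 in LeuB, and 16.79, 16.85 and 16.91 in WT. All leukaemic arrays lay above all WT arrays. Rps2 rose by 0.40 in LeuA (limma adjusted p = 0.00027, SE 0.06), and its rise in LeuB was 0.31 (adjusted p = 0.0013), and within slide 1 the LeuB difference was 0.31 (adjusted p = 0.021).

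Rpsa, which sits on the outer side of the small subunit and also binds laminin, fell in both leukaemias. Its values were 8.94, 8.97 and 8.84 in LeuA, 8.66, 8.70 and 8.73 in LeuB, and 9.25, 9.39 and 9.18 in WT. The 3 groups did not overlap one another. Its 1 probe was dim for a core gene, with a mean of 8.96 where the median over core genes was above 17 in every array. Rps25 and Rpl21 below also rest on 1 dim probe each, with means of 8.81 and 9.05. Which transcripts these probes read was not examined. Rpsa fell by 0.35 in LeuA (adjusted p = 0.0033, SE 0.07), and in LeuB it fell by 0.58 (adjusted p = 0.00013), and within slide 1 the LeuB difference was -0.62 (adjusted p = 0.0043). The fall in LeuA was lost with arrays centred on reference genes, at -0.08 (adjusted p = 0.42).

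Rps6 is the substrate after which the S6 kinases are named. It had 12.70, 12.49 and 12.30 in LeuA, 12.36, 12.55 and 12.55 in LeuB, and 12.87, 12.95 and 12.79 in WT. The leukaemic arrays lay below the WT arrays and overlapped each other. Rps6 fell by 0.37 in LeuA (adjusted p = 0.021, SE 0.10), and in LeuB it fell by 0.38 (adjusted p = 0.016), and centring on reference genes left -0.10 and -0.13, with adjusted p of 0.44 and 0.33.

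Rps21 fell in LeuA by 0.47 (SE 0.14, adjusted p = 0.030), with 15.01, 14.77 and 14.46 in LeuA and 15.20, 15.26 and 15.17 in WT. LeuA 3 was the lowest of these, and the call was lost on leaving out LeuA 2, LeuA 3 or any WT array, at -0.33 without LeuA 3 (adjusted p = 0.093). In LeuB, where Rps21 had 14.74, 15.14 and 15.08, the difference of -0.22 did not pass (adjusted p = 0.25). Rps3, a protein at the mRNA entry channel, fell by 0.21 in LeuA (adjusted p = 0.030) and gave -0.13 in LeuB (adjusted p = 0.15). Its dimmer probe gave the other pattern, tested with limma over all named probes. That probe gave -0.12 in LeuA (adjusted p = 0.38) and fell by 0.35 in LeuB (adjusted p = 0.013), so which leukaemia passed depended on the probe. Rps29 fell by 0.21 in LeuA (adjusted p = 0.016) and gave -0.11 in LeuB (adjusted p = 0.15).

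Several small subunit genes passed in LeuB alone of the comparisons with WT, without a difference between the leukaemias that passed. Rps15a rose by 0.25 (SE 0.08, adjusted p = 0.024) and Rps7 by 0.20 (SE 0.07, adjusted p = 0.043). Rps25, a protein needed for some forms of internal initiation, fell by 0.32 (adjusted p = 0.014) and Rps26 by 0.21 (adjusted p = 0.029). Of these 4, Rps25 alone passed with a slide term. In LeuA these 4 gave 0.21, 0.15, -0.13 and -0.05, with adjusted p between 0.061 and 0.60. Rps19 and Rps14, whose partial loss in human marrow is linked to anaemia, did not pass: Rps19 gave -0.05 in LeuA and -0.12 in LeuB, and Rps14, near the top of the scale at a mean of 18.11, gave -0.04 and -0.07.

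The messenger RNA entry and decoding region, a list of 6 measured proteins, held 2 genes that passed in LeuA, Rps2 higher and Rps3 lower, and 1 in LeuB, Rps2. In this list of 6 genes the LeuA share of 33.3% was close to the 36.8% of all genes. The LeuB share of 16.7% was below the 42.3% of all genes. Its largest difference, in Rps23, did not pass. Rps23 contacts the decoding centre, and it had 17.13, 15.85 and 17.11 in LeuA, 17.24, 17.25 and 17.22 in LeuB, and 17.33, 17.30 and 17.38 in WT. The mean difference of -0.64 in LeuA (adjusted p = 0.12) comes mostly from LeuA 2. Without LeuA 2 the difference was -0.22 and passed (adjusted p = 0.029).

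LeuA 2 and LeuA 3 stood apart in a few more members. LeuA 2 lay over 0.3 below the median of its group in 4 members, LeuA 3 in 2, and no other array in more than 1. Rpl23a, which lies at the exit of the peptide tunnel, had 15.42, 14.36 and 15.35 in LeuA, 15.38, 15.40 and 15.47 in LeuB, and 15.54, 15.50 and 15.53 in WT. Its difference in LeuA was -0.48, and -0.14 without LeuA 2, and neither passed (adjusted p = 0.16 and 0.18). Rpl35, its neighbour at the tunnel exit, had 18.05, 17.94 and 16.99 in LeuA, 17.97, 18.04 and 18.06 in LeuB, and 18.00, 18.06 and 17.98 in WT. The difference in LeuA was -0.35, and -0.01 without LeuA 3, and neither passed (adjusted p = 0.31 and 0.92). These 3 genes were singled out after their values were seen.

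**Figure D3:**
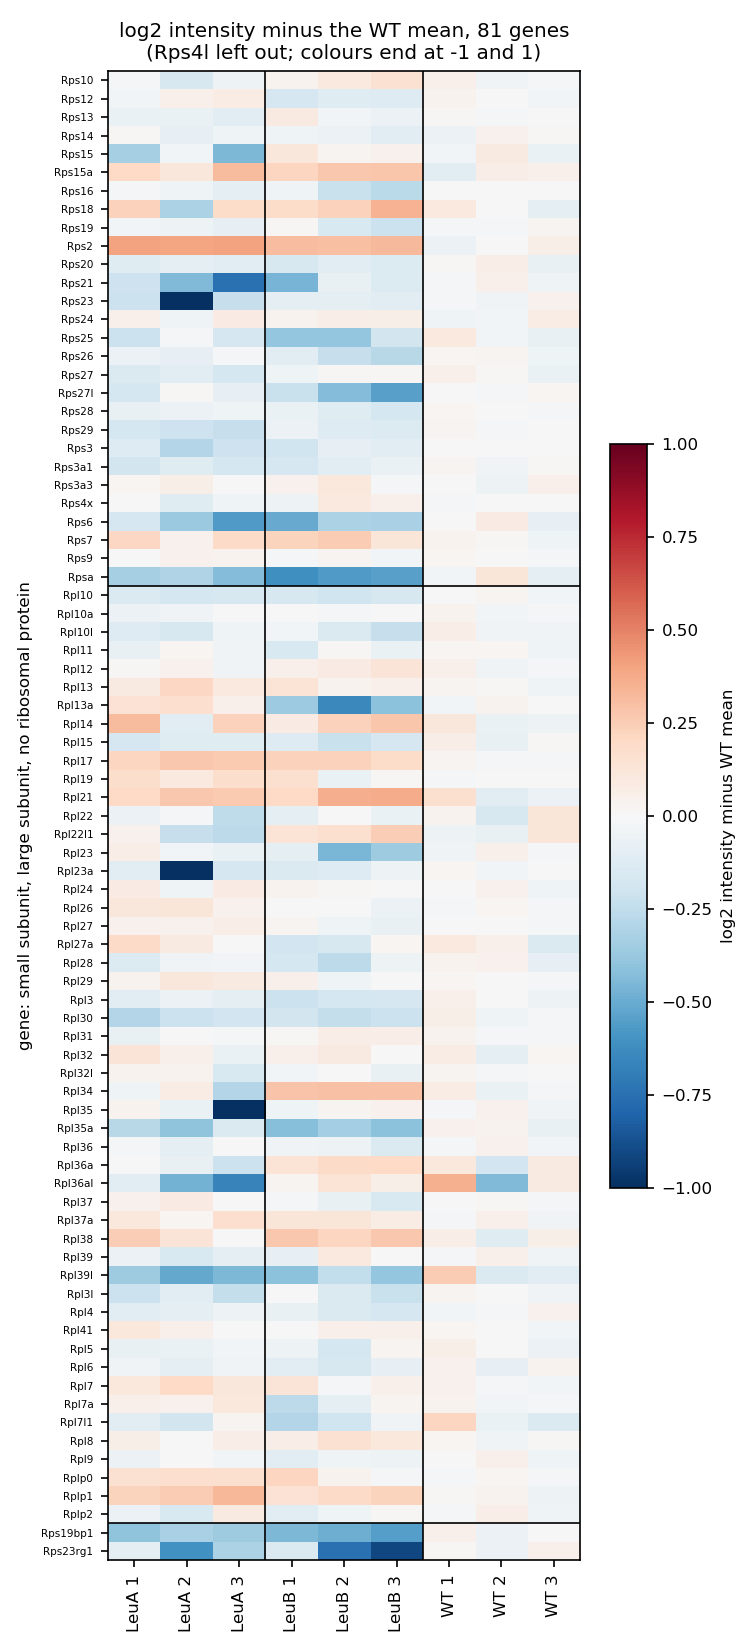
log2 intensity minus the WT mean of the gene, by colour from -1 (blue) to 1 (red), for 81 genes (rows; Rps4l is left out) in the LeuA, LeuB and WT arrays (columns). Rows are grouped into small subunit, large subunit and the 2 genes that encode no ribosomal protein; the darkest blue cells are Rps23 and Rpl23a in LeuA 2 and Rpl35 in LeuA 3.

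Of 44 core genes of the large subunit, 5 passed in LeuA, 2 higher and 3 lower, and 12 passed in LeuB, 5 higher and 7 lower. Their shares were 11.4% and 27.3%, against 36.8% and 42.3% of all genes. Rpl17, at the rim of the exit tunnel, had 16.97, 17.02 and 17.01 in LeuA, 16.98, 16.99 and 16.94 in LeuB, and 16.78, 16.74 and 16.74 in WT. All leukaemic arrays were above all WT arrays. Rpl17 rose by 0.25 in LeuA (adjusted p = 0.0048, SE 0.05), and its rise in LeuB was 0.21 (adjusted p = 0.0096), although within slide 1 the LeuB difference of 0.23 did not pass (adjusted p = 0.0501). Of the 9 tunnel and rim genes, Rpl17 was the 1 that passed in LeuA, and Rpl17 and Rpl38 passed in LeuB, or 11.1% and 22.2% of the list, again below the shares of all genes.

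The stalk of the large subunit, which recruits elongation factors, has 3 protein genes. Rplp1 had 17.47, 17.50 and 17.58 in LeuA, 17.39, 17.43 and 17.47 in LeuB, and 17.26, 17.28 and 17.20 in WT, without overlap of leukaemic and WT arrays. It rose by 0.27 in LeuA (adjusted p = 0.0050, SE 0.06), and its rise in LeuB was 0.18 (adjusted p = 0.031). Within slide 1 the LeuB difference was 0.15 (adjusted p = 0.24). Its partners did not pass: Rplp0 gave 0.16 in LeuA and 0.08 in LeuB (adjusted p = 0.11 and 0.40), and Rplp2 gave -0.04 and -0.05 (adjusted p = 0.76 and 0.67). Rpl5 and Rpl11, which bind 5S RNA and, when free, the p53 inhibitor Mdm2, gave -0.06 and -0.03 in LeuA and -0.06 and -0.07 in LeuB, and neither passed.

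Falls in both leukaemias were found in Rpl35a, Rpl30 and Rpl10. Rpl35a had 14.98, 14.85 and 15.11 in LeuA, 14.84, 14.92 and 14.85 in LeuB, and 15.30, 15.30 and 15.18 in WT, so that every leukaemic array was lower. It fell by 0.28 in LeuA (adjusted p = 0.018, SE 0.08), and in LeuB it fell by 0.39 (adjusted p = 0.0025). Rpl30 fell by 0.24 in LeuA and 0.21 in LeuB, with adjusted p of 0.011 and 0.018. Its dimmer probe fell by 0.22 in LeuA and 0.54 in LeuB (limma adjusted p = 0.028 and 0.00013 over all named probes). In that fit the dimmer probe was lower in LeuB than in LeuA by 0.32 (-0.32, adjusted p = 0.017). Rpl10, which joins the large subunit late in its assembly, fell by 0.16 and 0.17 (adjusted p = 0.040 and 0.025). Rpl30 and Rpl10 lay above 0 in both leukaemias with arrays centred on reference genes, and below 0 in both without Gusb, at -0.12 and -0.044 in LeuA and -0.12 and -0.080 in LeuB. With a slide term neither passed in LeuB (adjusted p = 0.13 and 0.12).

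Large subunit genes that passed in LeuB but not in LeuA were Rpl21, Rpl34 and Rpl38, which rose, and Rpl13a, Rpl23, Rpl3 and Rpl15, which fell. Rpl21 rose by 0.31 (adjusted p = 0.014), and its difference of 0.24 in LeuA did not pass (adjusted p = 0.0503). Rpl38, which is known in mouse for its role in translating Hox messages, rose by 0.25 (adjusted p = 0.030). Rpl23, another protein that can bind Mdm2, fell by 0.30 (adjusted p = 0.029). Rpl3, at the peptidyl transferase centre, fell by 0.19 (adjusted p = 0.023), and Rpl15 by 0.18 (adjusted p = 0.046). The dimmer probe of Rpl3 gave -0.15 in LeuB and did not pass (limma adjusted p = 0.14 over all named probes). Of these 7, Rpl13a alone passed in the fit with a slide term, and the adjusted p of the other 6 lay between 0.062 (Rpl3) and 0.52 (Rpl23).

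Among 18 measured genes mutated in Diamond-Blackfan anaemia, 2 passed in LeuA, Rpl35a and Rps29, both lower, and 5 in LeuB, of which Rps7 and Rps15a were higher and Rpl35a, Rps26 and Rpl15 lower. These are 11.1% and 27.8% of the list, against 36.8% and 42.3% of all genes. The median change of these 18 was -0.06 in LeuA and -0.05 in LeuB, close to the medians of -0.05 and -0.06 over all members.

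The largest change in the set was in Rps4l, a paralogue of the small subunit gene Rps4x that RefSeq annotates as a transcribed pseudogene. Rps4l had 6.35, 6.39 and 6.53 in LeuA, 6.37, 6.36 and 6.44 in LeuB, and 10.21, 10.01 and 9.95 in WT. The leukaemic arrays lay together near the lowest value of the arrays, 5.66, and far below the WT arrays. Rps4l fell by 3.63 in LeuA, and in LeuB it fell by 3.67 (adjusted p = 8.8e-10 and 8.7e-10, SE 0.08 each), which is 12.4-fold and 12.7-fold lower on the deposited values. Detection flags were not given, so whether the probe was above background in the leukaemias is unknown. Rps4x itself had 16.64, 16.53 and 16.60 in LeuA, 16.59, 16.74 and 16.70 in LeuB, and 16.63, 16.65 and 16.65 in WT, and it gave -0.05 and 0.03 (adjusted p = 0.59 and 0.72).

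Of the other paralogues, Rpl39l passed in both leukaemias and Rps27l in LeuB. Rpl39l, a paralogue of Rpl39 known from testis, was the dimmest member, with 6.16, 6.01 and 6.07 in LeuA, 6.11, 6.27 and 6.13 in LeuB, and 6.77, 6.37 and 6.41 in WT. It fell by 0.44 in LeuA and 0.35 in LeuB (adjusted p of 0.010 and 0.029), at values where background was not assessed, and within slide 1 the LeuB difference of -0.41 did not pass (adjusted p = 0.11). Rpl39 gave -0.10 and 0.00, and neither passed. Rpl3l, known from muscle, gave -0.19 and -0.12, Rpl10l, known from testis, -0.11 and -0.13, and Rpl7l1 -0.09 and -0.18, and none of these passed. Rpl7 gave 0.14 in LeuA and 0.05 in LeuB without passing. Rpl36al varied among its arrays more than any other member in WT, with an SD of 0.41, and gave -0.42 in LeuA and 0.07 in LeuB without passing, beside -0.10 and 0.17 in Rpl36a, which did not pass. The copies Rpl32l and Rps3a3 stayed between -0.03 and 0.05.

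Of the 2 genes that encode no ribosomal protein, Rps19bp1 fell in both leukaemias and Rps23rg1 passed in LeuB alone. Rps19bp1, whose protein binds Rps19 and is known in human cells to activate the deacetylase SIRT1, had 11.55, 11.63 and 11.60 in LeuA, 11.50, 11.47 and 11.40 in LeuB, and 12.01, 11.90 and 11.96 in WT. The groups did not overlap one another. It fell by 0.36 in LeuA (adjusted p = 0.00094, SE 0.06), and in LeuB it fell by 0.50 (adjusted p = 9.98e-05). Rps23rg1, a retrogene derived from Rps23 in mouse, fell by 0.60 in LeuB (SE 0.19, adjusted p = 0.032), and its -0.34 in LeuA did not pass (adjusted p = 0.23). Within slide 1 the LeuB difference of Rps23rg1 was -0.14 (adjusted p = 0.63).

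**Figure D4:**
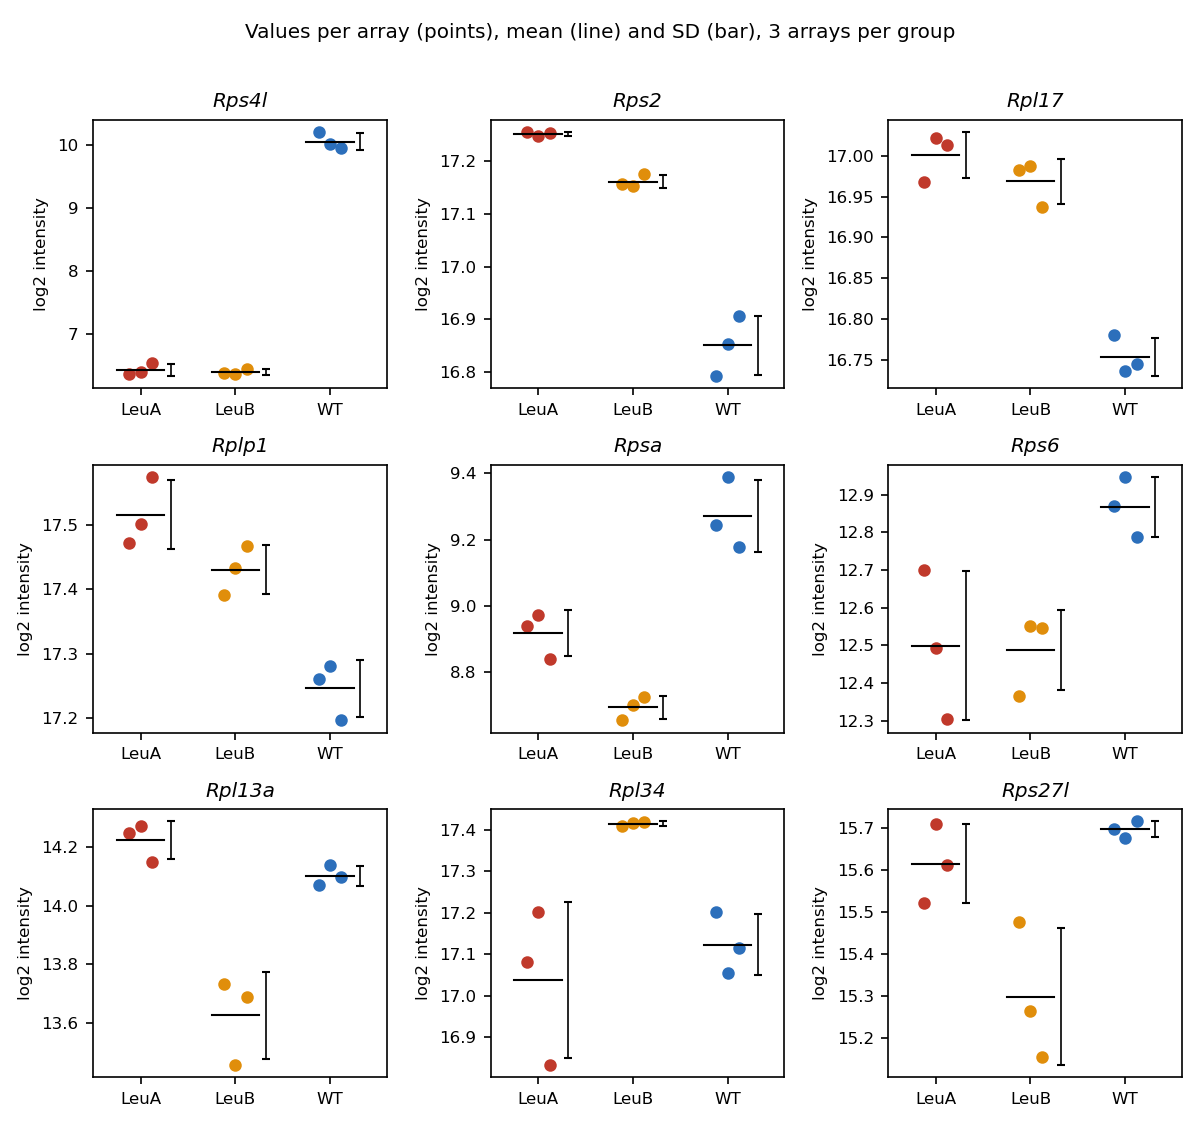
log2 intensity (y axis, a separate range in each panel that does not start at 0) of 9 members in LeuA, LeuB and WT (x axis), with 1 point per array, lines for group means and bars for the SD of 3 arrays. Rps4l and Rpsa are lower and Rps2, Rpl17 and Rplp1 higher in all leukaemic arrays than in all WT arrays, and in Rpl13a the LeuB arrays lie below both other groups.

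Few members differed between the leukaemias. In LeuB against LeuA, 3 of 82 members passed (3.66%), 1 higher and 2 lower, against 12.3% of all genes, 6.91% higher and 5.36% lower, and 0 members passed with a change of at least 2-fold, against 1.72%. Arrays of LeuB did not overlap those of LeuA in 26 members (31.7%), against 30.2% of all genes. Rpl13a, which in human monocytic cells also silences inflammatory messages, had 13.73, 13.46 and 13.69 in LeuB, 14.25, 14.27 and 14.15 in LeuA, and 14.07, 14.14 and 14.10 in WT. LeuB arrays lay below all LeuA arrays and all WT arrays. Rpl13a was lower in LeuB than in LeuA by 0.59 on the log2 scale (-0.59, SE 0.08, adjusted p = 0.0020). Against WT it fell by 0.47 in LeuB (adjusted p = 0.0011) and gave 0.12 in LeuA (adjusted p = 0.32). Within slide 1, where LeuB has 1 array, the difference from LeuA was -0.49 (adjusted p = 0.033).

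Rpl34 was higher in LeuB than in LeuA, with 17.41, 17.42 and 17.42 in LeuB, 17.08, 17.20 and 16.83 in LeuA, and 17.20, 17.05 and 17.11 in WT. The difference between the leukaemias was 0.38 (SE 0.09, adjusted p = 0.031). Rpl34 rose by 0.29 in LeuB against WT (adjusted p = 0.031) and gave -0.08 in LeuA. Within slide 1 the difference between the leukaemias was 0.37 and did not pass (adjusted p = 0.30).

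Rps27l, which is induced by p53 in human cells, had 15.48, 15.27 and 15.15 in LeuB, 15.52, 15.71 and 15.61 in LeuA, and 15.70, 15.68 and 15.72 in WT. LeuB 1, on the slide of the other groups, was the highest LeuB array. The difference of -0.32 between LeuB and LeuA just passed (SE 0.09, adjusted p = 0.0498), and within slide 1 it was -0.14 (adjusted p = 0.57). Against WT Rps27l fell by 0.40 in LeuB (adjusted p = 0.0052), with -0.22 within slide 1 (adjusted p = 0.12). Rps27 gave -0.14 in LeuA and -0.01 in LeuB against WT, and neither passed. Rpl22l1, which in mouse is repressed by its paralogue Rpl22, was 0.33 higher in LeuB than in LeuA without passing (adjusted p = 0.054). Between the leukaemias the brighter probe of Rpl22 gave 0.06. Its dimmer probe gave -0.35 and passed (limma adjusted p = 0.024 over all named probes).

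The LeuB counts move with the slide. With slide as a block, 3 members were higher and 8 lower in LeuB against WT, and 9 of the 24 calls remained: Rps2 and Rpl17 higher, and Rps4l, Rpsa, Rps6, Rps25, Rps19bp1, Rpl13a and Rpl35a lower. Against LeuA, 0 were higher and 1 lower. Within slide 1, where LeuB has 1 array that was assumed to vary like the other groups, the counts were 1 higher and 8 lower against WT and 0 higher and 1 lower against LeuA. The 1 member that passed between the leukaemias in these fits was Rpl13a.

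Different probes of a gene did not always give the same change. Of 16 members with more than 1 probe, 8 had probes that passed and probes that did not in at least 1 comparison with WT, and 0 had probes that passed in opposite directions. The widest gap was in Rps24, a small subunit gene mutated in Diamond-Blackfan anaemia whose messages are known to differ in small exons near their end. Its brightest probe had 17.76, 17.66 and 17.79 in LeuA, 17.74, 17.77 and 17.77 in LeuB, and 17.67, 17.68 and 17.78 in WT, with overlapping groups and differences of 0.03 and 0.05. Its dimmest probe, made for another transcript record, had 11.64, 11.61 and 11.58 in LeuA, 11.64, 11.54 and 11.87 in LeuB, and 13.86, 14.27 and 14.22 in WT. All leukaemic arrays of that probe lay below all WT arrays. It fell by 2.51 in LeuA, and in LeuB it fell by 2.43 (SE 0.12 each, limma adjusted p = 1.4e-07 and 1.7e-07 over all named probes), and the other 3 probes did not pass. Which exons the probes read was not examined.

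**Figure D5:**
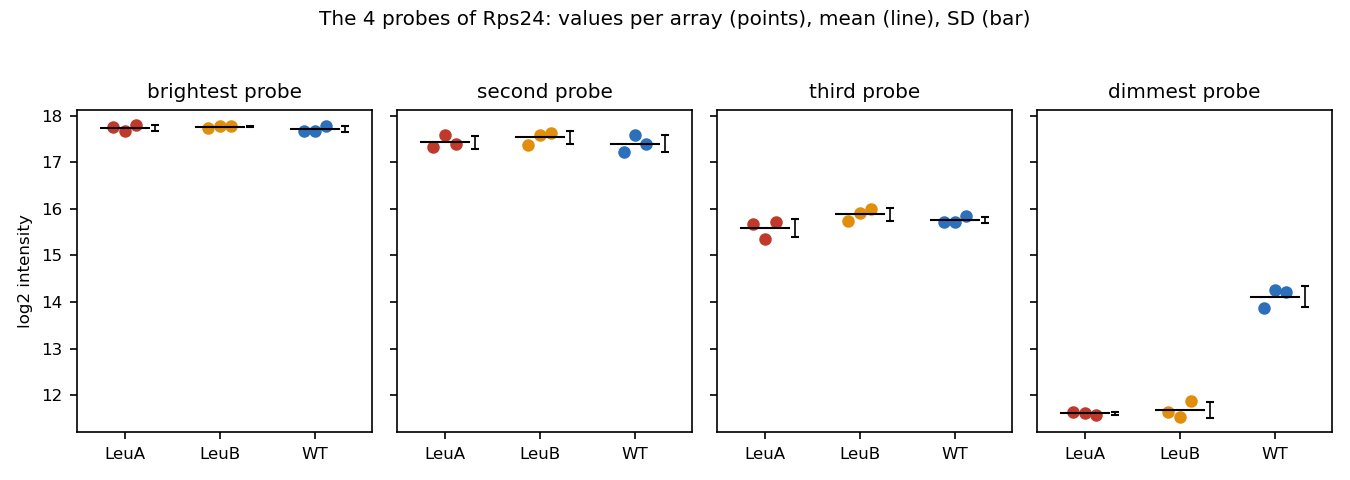
log2 intensity (y axis, not starting at 0) of the 4 probes of Rps24, from the brightest on the left to the dimmest on the right, in LeuA, LeuB and WT (x axis), with 1 point per array, lines for means and bars for the SD of 3 arrays. The dimmest probe alone separates the leukaemias, near 11.6, from WT, near 14.1.

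Other genes showed smaller gaps. The dimmer probe of Rpl22 fell by 0.58 in LeuA and 0.94 in LeuB, whereas the brighter one gave -0.11 and -0.05 and did not pass. The dimmer probe of Rpl14 rose by 0.56 in LeuA and gave 0.06 in LeuB, and it was lower in LeuB than in LeuA by 0.50 on the log2 scale (-0.50, adjusted p = 0.0052). Its brighter probe gave 0.15 and 0.20 and did not pass. In Rps3a1 the dimmer probe rose by 0.21 and 0.22, and the brighter gave -0.16 and -0.11 without passing. The second probe of Rps23rg1 gave 1.33 in LeuA, with 8.30, 12.59 and 8.37 in its arrays, and -0.08 in LeuB, and did not pass.

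Other genes of translation were counted from lists, and their counts stand beside 36.8% of all genes in LeuA and 42.3% in LeuB. Of 8 elongation factors and associated proteins, 4 passed in each leukaemia, 1 higher and 3 lower. Eef1e1, a scaffold protein of the tRNA synthetase complex, rose by 0.95 in LeuA and 0.77 in LeuB. Eef1b2 fell by 0.45 and 0.43, and Eef1g by 0.24 and 0.28, both subunits of the exchange factor for the elongation factor that brings tRNA. Of 25 initiation factors, 12 passed in LeuA, 8 higher and 4 lower, and 18 in LeuB, 9 higher and 9 lower. Eif1a fell by 0.78 in LeuA and 0.85 in LeuB, Eif4b fell by 0.72 and 0.74, and Eif3e rose by 0.56 in each.

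Binding proteins and regulators of TOP messages formed a list that also holds kinases of general translation factors. Of its 14 measured genes, 11 passed in LeuA, 6 higher and 5 lower, and 10 in LeuB, 5 higher and 5 lower. Eef2k, the kinase that inhibits elongation factor 2, rose by 1.65 in LeuA and 1.26 in LeuB. Mknk2, a kinase of the cap-binding protein Eif4e, rose by 0.75 and 0.59, and Tia1, which binds TOP messages under stress, fell by 1.02 and 0.79. Of 7 host genes of small nucleolar RNAs, whose transcripts also start with a TOP motif, 4 passed in LeuA and 2 in LeuB, and each of these was lower. Snhg3 fell by 0.72 in LeuA and 0.66 in LeuB, and Snhg6 by 0.32 and 0.45. Snhg12 fell by 0.74 in LeuA and gave -0.29 in LeuB (adjusted p = 0.060).

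Chaperones and importers of ribosomal proteins passed in 10 of 15 cases in each leukaemia, 0 higher and 10 lower, a list that includes Rps19bp1. The nucleolar protein gene Ncl fell by 1.03 in LeuA and 1.15 in LeuB, the import receptor gene Ipo5 by 0.82 and 1.04, and Aamp by 0.81 and 1.04. Among 3 measured factors that respond to free ribosomal proteins, 2 rose in each leukaemia: Cdkn1a, a cell cycle inhibitor induced by p53, rose by 1.42 in LeuA and 1.05 in LeuB, and Mdm4, an inhibitor of p53, by 0.42 and 0.55. Fau, a ribosomal protein gene without an Rps symbol, gave 0.01 and 0.19 and did not pass.

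Mitochondrial ribosomal protein genes serve another ribosome, and they offer a set of like size. Of 78, 39 (50%) passed in LeuA, 8 higher and 31 lower, and 45 (57.7%) in LeuB, 6 higher and 39 lower, with median changes of -0.13 and -0.24. Mrpl52 rose by 1.97 in LeuA and 2.39 in LeuB, whereas Mrpl44 fell by 0.99 and 1.12 and Mrpl33 by 0.99 and 1.00. These counts stand beside 17.1% and 29.3% of the cytosolic members. Over all genes 36.8% passed in LeuA, 18.9% lower, and 42.3% in LeuB, 20.4% lower. The genes share no probe with the cytosolic set, and their array values lay lower on the scale, with medians over the list of 12.36 to 12.65.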

How the data were processed

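Total RNA of the sorted cells was labelled with Cy3 and hybridised to 1-colour Agilent SurePrint G3 Mouse GE arrays, 1 sample per array. The deposited values are log2 intensities of 37877 probes on 9 arrays. Per the submitters' processing notes the authors used RMA, affy and limma, with neither versions nor roles given, and background correction and detection flags are not given in the sources used here. All arrays already shared a distribution, and the values were used as deposited. The number of arrays, not a count, limits the precision.

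A supplied probe table named 24877 probes and left 13000 unnamed. Each of 21872 genes was represented by its brightest probe. Group means were fitted to all 9 arrays with limma 3.58.1 (lmFit, eBayes) in R 4.3.3 with the data.table package (1.17.8), with 6 residual and 3.00 prior degrees of freedom. Tests were two-sided, and a gene passed where p, adjusted by Benjamini-Hochberg over the 21872 genes, was under 0.05. The script was tested on simulated data. Probes of 1 gene were also tested in a fit of all named probes.

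The members and gene lists were chosen with earlier results of these data known. Genes named in the text are a set of well-known members, each measured pair of a core gene and a paralogue, the 6 largest called rises and falls per comparison, the dimmest members, the 5 with the widest gap between probes, and up to 3 called genes per list. The other called members and Rps23, Rpl23a and Rpl35 were named after their values were seen, and Rps23rg1, Rpl32l and Rps3a3 were put in their class then. Replicate numbers were checked as pairs: the 9 correlations of same-numbered arrays lay between -0.041 and 0.103, and 1 exceeded 0.1, so they were not used as pairs. Other normalizations, probe choices, filters, slide terms and left-out arrays were tried as alternatives.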

Additional observations from a re-analysis of the deposited data

Results flagged for a closer look

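In 3 genes the change in LeuB differed from the change in LeuA by the limma test of the difference itself, over arrays that share the same WT group. For Rpl13a the LeuB change minus the LeuA change was -0.59 (adjusted p = 0.0020): LeuB gave -0.47 and LeuA 0.12 against WT. For Rpl34 the difference was 0.38 (adjusted p = 0.031), with 0.29 in LeuB and -0.08 in LeuA. For Rps27l it was -0.32 (adjusted p = 0.0498), with -0.40 in LeuB and -0.08 in LeuA. With slide as a block, Rpl13a gave -0.49 (adjusted p = 0.043), Rpl34 0.37 (adjusted p = 0.22) and Rps27l -0.14 (adjusted p = 0.57). Over all genes 12.3% passed this test.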

How the results depend on the processing

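Of 41 calls of named members, 9 held under every alternative tried: Rps4l and Rps2 in both leukaemias, Rpl17 and Rplp1 in LeuA, Rpsa and Rps19bp1 in LeuB, and Rpl13a between the leukaemias. Centring moved the counts most. On reference genes, 50 members were higher and 1 lower in LeuA (median 0.22), 38 and 3 in LeuB (median 0.19), and 0 and 1 in LeuB against LeuA. Without Gusb among the reference genes, an alternative chosen after seeing the data, the counts were 14 and 3 in LeuA (median 0.062), 15 and 7 in LeuB (median 0.034), and 0 and 1 between the leukaemias. On the array median over genes they were 10 and 6 in LeuA (median 0.0095), 9 and 8 in LeuB (median 0.0055), with 1 lower between the leukaemias. Slide as a block gave 5 higher in LeuA, 3 higher and 8 lower in LeuB (median -0.041), and 0 and 1 between the leukaemias, and slide 1 alone gave 1 and 8 in LeuB (median -0.041) and 0 and 1 between them. The replicate block gave 3 higher and 9 lower in LeuA, 6 and 14 in LeuB, and 1 and 1 in LeuB against LeuA, without a pairing that the labels or correlations bear out. At an adjusted p under 0.01, 3 were lower in LeuA, 2 higher and 6 lower in LeuB, and 0 and 1 between the leukaemias. In LeuA 5 were higher with the mean of all probes, with the dimmest probe and with genes dimmer than the median gene left out. The LeuB median was -0.047 with those genes left out and -0.038 over core genes. In LeuB against LeuA, a fit of these 2 groups gave 0 and 1, further quantile normalization 3 and 1, the dimmest probe 4 lower, and core genes alone 1 lower, and 3 were higher with dim genes left out and with a trended robust prior.

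Leaving out 1 array gave 3 to 5 higher and 6 to 13 lower in LeuA, 2 to 9 higher and 7 to 19 lower in LeuB, and 0 to 2 higher and 1 to 6 lower in LeuB against LeuA. The lower count in LeuA was 6 without WT 1 or LeuA 3 and 7 without WT 2, and the higher count was 5 without LeuA 2 or LeuB 1. In LeuB the higher count was 5 without WT 1 or LeuB 1, 3 without WT 2 or LeuB 3, 4 without WT 3 and 2 without LeuB 2, and the lower count was 7 without WT 1, 10 without WT 2 and 8 without LeuB 2. Between the leukaemias 6 were lower without LeuB 1 and 1 without any other array, and the higher count was 0 without WT 3, LeuA 3, LeuB 2 or LeuB 3 and 2 without LeuA 2 or LeuB 1. The medians of members stayed between -0.056 and -0.042 in LeuA, -0.066 and -0.039 in LeuB, and -0.026 and -0.010 between the leukaemias.

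Signs turned in 30 single values that passed as reported, under the alternative, or in both. Where neither passed, a turn of sign was not counted. Rpl36a in LeuA, for example, gave -0.10 as reported and up to 0.18 under an alternative. With arrays centred on reference genes, LeuA gave 0.062 in Rps3, 0.11 in Rpl10, 0.035 in Rpl30 and 0.066 in Rps29, and LeuB 0.078 in Rpl10, 0.065 in Rpl3, 0.076 in Rpl15, 0.041 in Rpl30 and 0.046 in Rps26, all called lower as reported. Under the same centring members not called as reported passed as higher: in LeuA Rplp2 at 0.23, Rps19 at 0.22, Rps14 at 0.23, Rpl5 at 0.21, Rpl11 at 0.24, Rpl3 at 0.18, Rps4x at 0.22, Rpl23 at 0.26 and Rps26 at 0.22, and in LeuB Rps14 at 0.18 and Rps27 at 0.25. The mean of all probes gave -0.65 in LeuA and -0.53 in LeuB for Rps24, and -0.22 for Rpl14 in LeuB against LeuA. The dimmest probe gave -2.51 and -2.43 for Rps24, 0.21 and 0.22 for Rps3a1, and, in LeuB against LeuA, -0.35 for Rpl22, -0.50 for Rpl14 and -0.32 for Rpl30. Beside the centring and the choice of probe, which set these values by construction, the cause was not tested. Of the other values of single members, 3011 kept their side of the threshold, 237 lost the threshold and 79 gained it. The 3011 include values that passed neither as reported nor under the alternative, and their signs were not compared. Background was not assessed in the dimmest members. Values near the top of the scale leave little room for a rise, and the part of this in the results was not tested.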
